A study of Mus musculus with 6 samples.

Results

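RNA-binding proteins that decide how long an mRNA lasts and whether it is translated were followed in mRNA of MuSCs, the stem cells that reside in skeletal muscle and repair it, taken fresh from the tissue. The members are 8 genes taken by symbol from a list of mRNA decay and translational control proteins with known roles in MuSC quiescence, and all 8 were found among the 22081 genes of the expression table. They are Zfp36, Zfp36l1, Zfp36l2, Stau1, Fmr1, Msi2, Elavl1 and Pabpc1. Myod1, whose mRNA several of these proteins are known to act on, was followed beside them. Binding, mRNA half-life, translation and protein were not measured, so the values below are mRNA levels of the proteins' own genes.

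In quiescent MuSCs, mRNAs of the myogenic programme are present before they are used, and RNA-binding proteins hold them back. The ZFP36 family (ZFP36, also called tristetraprolin, ZFP36L1 and ZFP36L2) binds AU-rich elements in 3′ UTRs and brings in the CCR4-NOT deadenylase, which shortens the poly(A) tail. ZFP36 is known to destabilise Myod1 mRNA in quiescent MuSCs and is inactivated through p38 and MK2 when the cells activate, whereas Staufen1 (Stau1) is known to block Myod1 translation. FMRP (Fmr1) represses translation and Musashi-2 (Msi2) regulates it, HuR (Elavl1) stabilises AU-rich mRNAs, and PABPC1 coats poly(A) tails and supports translation.

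Total RNA of 6 libraries was sequenced, 3 with the genotype label Control, titled WT, and 3 with the genotype label Taf4asKO, titled Taf4a-KO. The Taf4asKO mice were adult C57BL/6 animals with floxed Taf4a alleles and a tamoxifen-inducible Cre recombinase driven by Pax7 (Pax7CreERT), given tamoxifen, and the controls are described as littermates that also carry floxed Taf4a, with or without the Cre. The sources used here do not state which control genotype or sex gave which library, whether these controls received tamoxifen, or how many animals stand behind a library, so p-values measure the spread between these libraries. The study describes its replicates in general as biological, without naming the animals behind these libraries. Cells were sorted as SCA1-, CD45-, CD31- and integrin alpha7+ or by a Pax7 reporter. Total normalized counts were 12338676 to 14551732 per library, where a normalized count is a read count divided by the authors' size factor and rounded. Pearson's r of log2 values was 0.9611 to 0.9843 within groups and 0.9454 to 0.9662 between them. Taf4, the current symbol of Taf4a, was 613, 534 and 478 in control and 631, 565 and 574 in Taf4asKO (log2 fold change 0.13, SE 0.12, limma adjusted p = 0.524). The total was thus not lower in the libraries labelled Taf4asKO. Only part of the gene is floxed, and a count over all exons does not check the labels, so each direction below rests on the genotype labels.

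Genes with a mean of at least 5 were tested with limma on log2(value + 1), and a gene was called where p adjusted by the Benjamini-Hochberg method was under 0.05 and the fold at least 1.3. All fold changes below are Taf4asKO against control on that scale. Of 18562 genes tested, 2347 were called (12.6%), with 1101 higher (5.93%) and 1246 lower (6.71%) in Taf4asKO, and the groups did not overlap for 33.0%. With the replicate number as a block, 18.1% were called. The number called ranged from 956 (without Taf4asKO replicate 3) to 3096 (without control replicate 2) when single libraries were left out, and was 941 when limma fitted no trend of the variance with the level.

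The element that the ZFP36 family reads is short. The heptamer TATTTAT, with U for T in the RNA, contains the core of the AU-rich element bound by the ZFP36 family, and it was searched on the mRNA strand in the longest annotated 3′ UTR of each gene (GENCODE M21, mm10). The Myod1 3′ UTR (705 bases) held 1, which begins 585 bases after the stop codon. It is shown with 1 site of each called member, with the heptamer in capitals.
Myod1, chr7:46378968-46378996 (+): cccttgggctaTATTTATctcccaggcat
Zfp36, chr7:28376951-28376979 (-): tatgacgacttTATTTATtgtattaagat
Zfp36l1, chr12:80108422-80108450 (-): ttatcaaaacgTATTTATtgccaaactat
Zfp36l2, chr17:84184914-84184942 (-): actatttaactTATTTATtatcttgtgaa
Fmr1, chrX:68717204-68717232 (+): tgatttctagtTATTTATtctgggaatgt

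Each mRNA of the ZFP36 family held 3 copies, in 3′ UTRs of 774 bases (Zfp36), 1835 bases (Zfp36l1) and 1822 bases (Zfp36l2). Fmr1 and Msi2 held 1 copy each, Elavl1 held 8 copies, most of them overlapping a neighbour, and Stau1 and Pabpc1 held 0. The share of genes with at least as long a 3′ UTR that held the heptamer within the same length was 16.6% for Myod1, 18.1% for Zfp36, 37.2% for Zfp36l1, 36.9% for Zfp36l2, 43.4% for Fmr1, 69.6% for Msi2, 62.2% for Elavl1, 36.7% for Stau1 and 10.4% for Pabpc1. A match is a run of letters and not a measured binding site.

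Of the 8 members, 4 were called and all 4 were higher in Taf4asKO, namely the 3 ZFP36 family genes and Fmr1, against a background of 5.93% of genes called higher. Stau1, Msi2, Elavl1 and Pabpc1 were not called. In the lower direction 0 members were called by limma, and 0 had an unadjusted p under 0.05. Libraries of the 2 groups did not overlap for 4 of 8 members, the same 4, against 33.0% of all genes. The median log2 fold change was 0.23 over the 8 members and 0.004 over all genes tested. Leaving out single libraries left between 2 and 4 members called, with Zfp36 and Zfp36l1 called each time. The lowest number, 2, came without Taf4asKO replicate 1 and without Taf4asKO replicate 2. Where limma's trend of the variance with the level was left out, 1 member, Zfp36, was called.

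**Figure D1:**
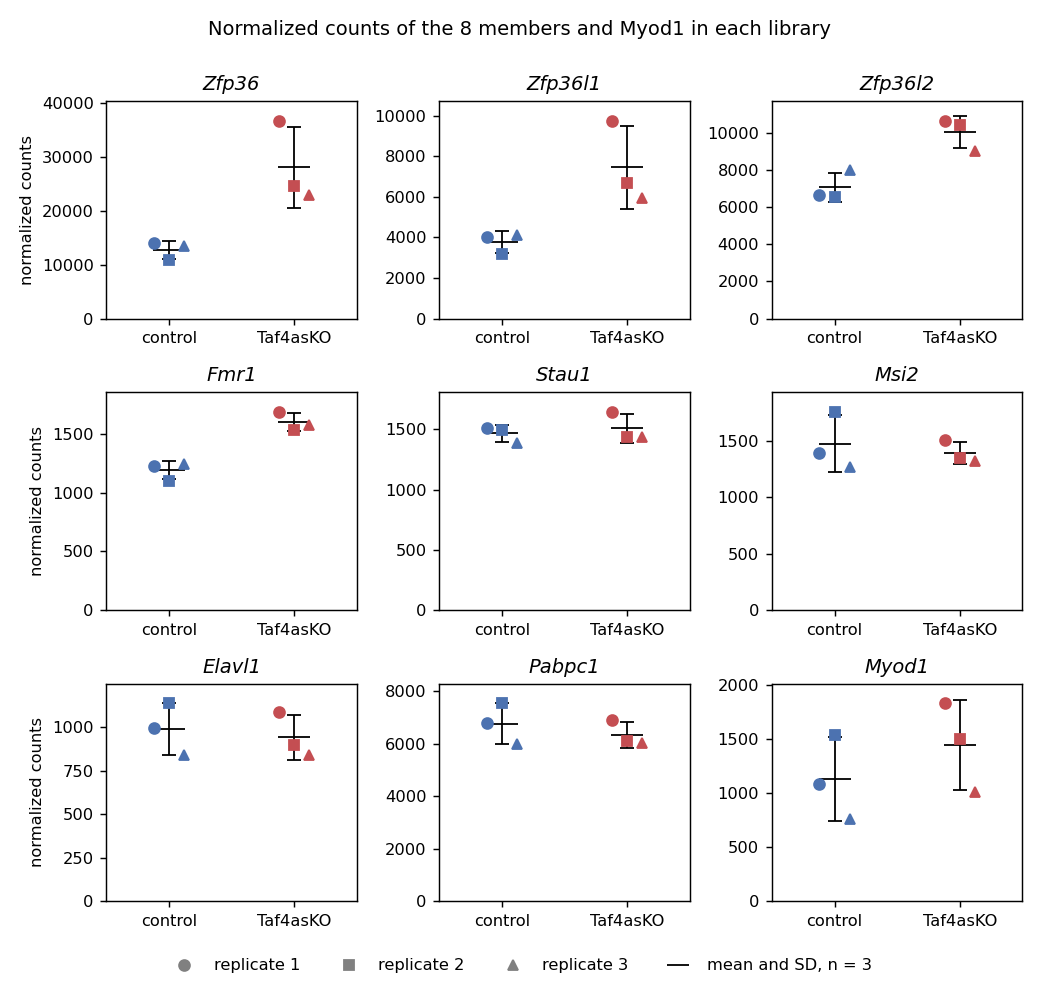
Normalized counts of the 8 members and Myod1 in each library (points) with the mean and SD of each group of 3. The Taf4asKO points of Zfp36, Zfp36l1, Zfp36l2 and Fmr1 all lie above their control points, and those of Stau1, Msi2, Elavl1, Pabpc1 and Myod1 overlap them.

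Zfp36 (ENSMUSG00000044786, chr7:28376784-28380253, minus strand), which encodes tristetraprolin, showed the largest difference of the 8 members. Its normalized counts were 13960, 10823 and 13498 in control and 36779, 24617 and 22992 in Taf4asKO. Every Taf4asKO library was above every control library, with Taf4asKO replicate 1 highest and control replicate 2 lowest. The mean rose from 12760 ± 1694 to 28129 ± 7535 (SD, n = 3 each), a ratio of 2.2. The log2 fold change was 1.12 (SE 0.18, 95% interval 0.72 to 1.51, adjusted p = 0.00372), it lay between 0.91 and 1.25 when each library was left out, and 546 of all genes tested had a larger one.

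Zfp36l1 (ENSMUSG00000021127, chr12:80107754-80113013, minus strand), a paralog known to act in the same decay pathway, measured 4007, 3166 and 4129 normalized counts in control libraries and 9752, 6682 and 5917 in Taf4asKO. The groups did not overlap, and the highest and the lowest libraries were the same as for Zfp36. Its mean rose 1.98 times, from 3767 ± 524 to 7450 ± 2030 (SD, n = 3 each), with a log2 fold change of 0.96 (SE 0.18, adjusted p = 0.00738). It was called whichever library was left out, but not when limma's trend of the variance with the level was left out (adjusted p = 0.0685).

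Zfp36l2 (ENSMUSG00000045817, chr17:84183931-84187947, minus strand), the remaining family member measured, measured 6646, 6554 and 7982 normalized counts in control libraries and 10656, 10442 and 9032 in Taf4asKO. All 3 Taf4asKO libraries were higher, and the fitted rise was the smallest of the 3 family genes. The mean rose 1.42 times, from 7061 ± 799 to 10043 ± 882 (SD, n = 3 each), with a log2 fold change of 0.51 (SE 0.11, adjusted p = 0.0172). The call was lost without control replicate 1 (adjusted p = 0.0507), without Taf4asKO replicate 1 (0.0663) and without Taf4asKO replicate 2 (0.0913), as it was without the variance trend (0.0955), with a log2 fold change of 0.46 to 0.60 over all 6 such fits.

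Summed over the family, the normalized counts were 24613, 20543 and 25609 in control and 57187, 41741 and 37941 in Taf4asKO, a ratio of means of 1.93. Per kilobase of annotated exon, Zfp36 supplied 53.0 ± 2.23% of the family's level in control and 60.0 ± 2.58% in Taf4asKO. The share of Zfp36l2 was 28.9 ± 2.57% and 21.6 ± 3.29%, and that of Zfp36l1 was 18.1 ± 0.507% and 18.4 ± 0.821% (SD, n = 3 each). The log2 ratio of Zfp36 to Zfp36l2 was 0.85 ± 0.19 in control and 1.46 ± 0.29 in Taf4asKO, a difference of 0.61 with no overlap between groups. The same ratio of Zfp36 to Zfp36l1 was 1.76 ± 0.05 and 1.92 ± 0.04, a difference of 0.16, again with no overlap. With 3 libraries against 3, the two-sided exact permutation test cannot give a p below 0.1, which both ratios reached (0.125 after adjustment over the 10 gene ratios compared).

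Fmr1 (ENSMUSG00000000838, chrX:68678541-68717963, plus strand), which encodes the translational repressor FMRP, measured 1224, 1103 and 1246 normalized counts in control libraries and 1688, 1538 and 1576 in Taf4asKO. The libraries of each group lay close together and the groups were apart. The mean rose 1.34 times, from 1191 ± 77.0 to 1601 ± 78.0 (SD, n = 3 each), which is just above the fold limit of 1.3. The log2 fold change was 0.43 (SE 0.10, 95% interval 0.21 to 0.64, adjusted p = 0.0174). The call was lost without control replicate 2, where the log2 fold change of 0.37 was under the limit, and without Taf4asKO replicates 1, 2 or 3, where adjusted p was 0.0697, 0.0683 and 0.0747. It was also lost after scaling to the library total (adjusted p = 0.0502) and without the variance trend (0.0955).

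Stau1 (ENSMUSG00000039536, chr2:166947549-166996299, minus strand), the double-stranded RNA binding protein Staufen1, measured 1515, 1498 and 1384 normalized counts in control libraries and 1644, 1440 and 1437 in Taf4asKO. The groups overlapped, and the log2 fold change was 0.04 with a 95% interval of -0.18 to 0.26 (adjusted p = 0.836). Its sign turned in some alternatives, with a lowest value of -0.03 without Taf4asKO replicate 1.

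Msi2 (ENSMUSG00000069769, chr11:88339382-88718229, minus strand) measured 1393, 1757 and 1271 normalized counts in control libraries and 1508, 1352 and 1323 in Taf4asKO. Its log2 fold change was -0.07 (95% interval -0.35 to 0.22, adjusted p = 0.77). Control replicate 2 was the highest of the 6 libraries, and without it the value was 0.07.

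Elavl1 (ENSMUSG00000040028, chr8:4285382-4325413, minus strand), the gene of HuR, measured 995, 1136 and 839 normalized counts in control libraries and 1085, 899 and 840 in Taf4asKO. The groups spanned almost the same range, with a log2 fold change of -0.07 (95% interval -0.38 to 0.24, adjusted p = 0.782) that became 0.03 without control replicate 2 and 0.01 without Taf4asKO replicate 3. Pabpc1 (ENSMUSG00000022283, chr15:36595661-36608973, minus strand) measured 6783, 7540 and 5989 normalized counts in control libraries and 6903, 6108 and 6017 in Taf4asKO. The groups overlapped here too, and the log2 fold change was -0.09 (95% interval -0.34 to 0.16, adjusted p = 0.638). For these 4 members a difference was not detectable with 3 libraries a group, and the intervals reach from -0.38 to 0.26.

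**Figure D2:**
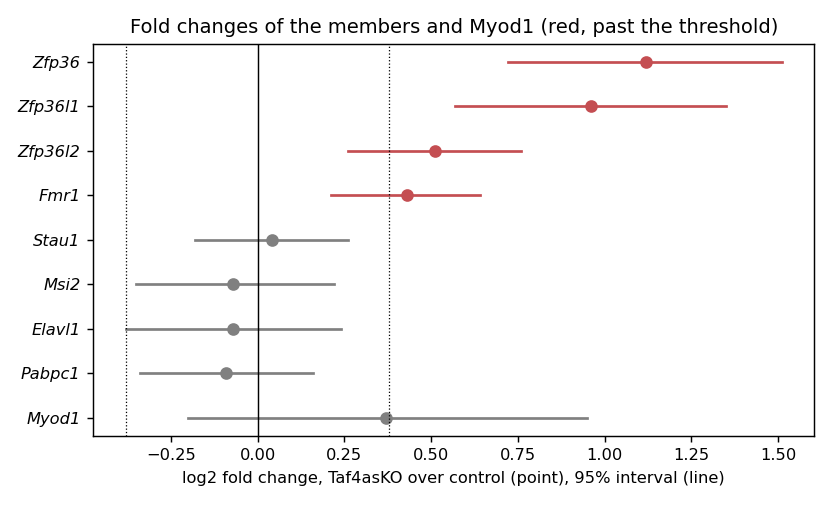
Log2 fold change (Taf4asKO against control, on log2(value + 1)) of the 8 members and Myod1 with 95% intervals from limma, where dotted lines mark the fold limit of 1.3. The intervals of Zfp36, Zfp36l1, Zfp36l2 and Fmr1 lie above 0, and those of the other genes cross 0.

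Per kilobase of annotated exon, the members covered a wide range of levels. In control the order was Zfp36 (3677 ± 488 normalized counts per kb), Zfp36l2 (2000 ± 226), Zfp36l1 (1260 ± 175), Pabpc1 (1035 ± 119), Stau1 (242 ± 11.7), Msi2 (142 ± 24.3), Fmr1 (133 ± 8.59) and Elavl1 (95.5 ± 14.3; SD, n = 3 each). Among neighbours in this order the control libraries of Zfp36l1 and Pabpc1 overlapped, and so did those of Msi2 and Fmr1. By the mean of all libraries per kilobase Zfp36 ranked 34 of 18532 genes, Zfp36l2 72, Zfp36l1 111 and Pabpc1 250, while Elavl1 ranked 4583. In Taf4asKO the levels per kb of Zfp36l2 (2845 ± 250) and Zfp36l1 (2492 ± 679) overlapped, and Fmr1 (179 ± 8.70) stood above Msi2 (134 ± 9.56) without overlap.

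Single libraries stood at the ends of the range for several members together. Zfp36, Zfp36l1, Zfp36l2 and Fmr1 each had their highest value in Taf4asKO replicate 1 and their lowest in control replicate 2, Zfp36l2 by a small margin (6554 against 6646). Msi2, Elavl1 and Pabpc1 had their highest value of all in that same control replicate 2, and their highest Taf4asKO value in Taf4asKO replicate 1.

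**Figure D3:**
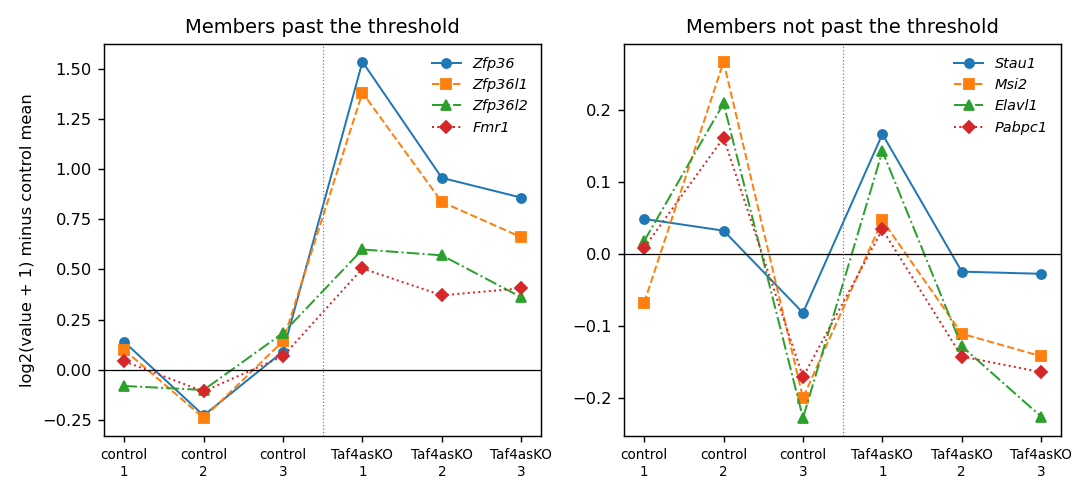
Each member's log2(value + 1) minus its mean in control, by library, for called members (left) and the others (right, on a narrower axis), with lines that only join the values of 1 gene. The 4 called members are lowest in control replicate 2 and highest in Taf4asKO replicate 1, whereas Msi2, Elavl1 and Pabpc1 are highest in control replicate 2.

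Myod1 (ENSMUSG00000009471, chr7:46376474-46379099, plus strand), the transcription factor that commits MuSCs to the myogenic programme, measured 1088, 1544 and 764 normalized counts in control libraries and 1834, 1502 and 1009 in Taf4asKO. The groups overlapped, since control replicate 2 was above Taf4asKO replicates 2 and 3. The mean was 1132 ± 392 in control and 1448 ± 415 in Taf4asKO (SD, n = 3 each), with a log2 fold change of 0.37 (95% interval -0.20 to 0.95) that was not called (adjusted p = 0.378, and 0.0738 to 0.804 over the alternatives). The log2 ratio of Myod1 to Zfp36 was -3.54 ± 0.68 in control and -4.29 ± 0.24 in Taf4asKO, and the groups overlapped (two-sided exact permutation p = 0.2, 0.222 adjusted over the 10 ratios). For Myod1 to Stau1 it was -0.43 ± 0.45 and -0.10 ± 0.36 (exact permutation p = 0.4, the same after adjustment).

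Paralogs of the members were compared next, and none of them was called higher. Of 15 listed, 11 were in the table and 10 were tested, with 0 called higher and 2 called lower (20% against 12.6% of all genes) and a median log2 fold change of -0.32. Stau2, a paralog of Stau1 with a known role in neuronal RNA transport, measured 142, 170 and 153 normalized counts in control libraries and 87, 96 and 91 in Taf4asKO (log2 fold change -0.75, SE 0.16, adjusted p = 0.0133). Msi1, the paralog of Msi2, had 146, 200 and 116 in control and 47, 28 and 52 in Taf4asKO (log2 fold change -1.85, SE 0.28, adjusted p = 0.00298), and remained called whichever library was left out, while Stau2 was called in 3 of those 6 fits. Both are low beside the members, and for both all 3 Taf4asKO libraries lay below the control libraries.

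The difference between a member and its paralog was also taken within each library. The log2 ratio of Msi1 to Msi2 was -3.27 ± 0.16 in control and -5.05 ± 0.46 in Taf4asKO. That of Stau2 to Stau1 was -3.24 ± 0.15 and -4.03 ± 0.17. The log2 ratios of Fmr1 to its paralogs were higher in Taf4asKO, with a ratio to Fxr1 of -0.30 ± 0.38 and 0.31 ± 0.07 and a difference in its log2 ratio to Fxr2 of 0.62. For Pabpc1 to Pabpc4 it was 3.18 ± 0.09 and 3.01 ± 0.10. In all 5 ratios the groups did not overlap, and the two-sided exact permutation p was 0.1, the smallest possible, or 0.125 adjusted over the 10 ratios (n = 3 each). Fxr1 had 1494, 1778 and 1186 in control and 1436, 1216 and 1228 in Taf4asKO. None of Fxr1, Fxr2, Elavl3, Pabpc4, Pabpc1l, Pabpc5, Pabpn1 and Pabpn1l was called, with log2 fold changes of -0.18, -0.20, -0.71, 0.08, 0.37, -0.51, 0.10 and -0.45.

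The genes around the members in the cell were taken from lists of their pathways. Over all 11 lists of related genes, 198 of 214 were tested, 22 were called higher and 14 lower (18.2% against 12.6% of all genes), with a median log2 fold change of 0.07. Without limma's trend of the variance 13 of these 36 calls remained, those of Ccl2, Cebpd, Cxcl1, Dusp1, Eif4g3, Fos, Ier2, Junb, Lsm4, Lsm6, Msi1, Stau2 and Tob1, and the other genes of these lists named below as called, such as Btg2 (adjusted p = 0.0938), Cdkn1a (0.0609) and Cxcl2 (0.0811), lost their calls there. The kinases that inactivate ZFP36 were not called, with 775, 729 and 695 normalized counts of Mapk14 (p38 alpha) in control and 764, 706 and 714 in Taf4asKO, and 964, 835 and 874 against 1173, 843 and 840 for Mapkapk2 (MK2). Dusp1, the phosphatase that removes the activating phosphates from p38 and whose own mRNA is a known ZFP36 target, had 4669, 3889 and 5132 in control and 9366, 8771 and 8326 in Taf4asKO. It rose with a log2 fold change of 0.96 (SE 0.12, adjusted p = 0.000998) and was the single gene of the 17 tested in that list that was called (5.88% against 12.6% of all genes). With the replicate block, which called 18.1% of all genes, 2 were called, the other being Ppp2cb, a catalytic subunit of the phosphatase PP2A, which was named after its value was seen.

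In the deadenylation list 2 of 19 genes were called (10.5% against 12.6% of all genes), and both belong to the BTG and TOB family of anti-proliferative adaptors that link CCR4-NOT to mRNAs. Tob1 measured 1008, 1106 and 903 normalized counts in control libraries and 3129, 2587 and 2326 in Taf4asKO (log2 fold change 1.41, SE 0.13, adjusted p = 0.000187). Btg2 had 9803, 6761 and 10296 against 21106, 13391 and 15191 (log2 fold change 0.88, SE 0.19, adjusted p = 0.0162), with the lowest library again control replicate 2 and the highest Taf4asKO replicate 1. For Tob1 the libraries of the groups were far apart. The Btg2 call was lost without Taf4asKO replicate 1. The other adaptors of the list, named after their values were seen, were not called, with log2 fold changes of 0.42 for Btg1, -0.22 for Tob2 and -0.27 for Btg3, and no subunit of the CCR4-NOT complex itself was called. With the block the list had 3 higher and 1 lower, adding Btg1 and Pan2, also named after its value was seen.

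In the decapping and 5′ to 3′ decay list, 2 of 20 genes were called (10% against 12.6% of all genes), and both fell. They encode subunits of the Lsm ring, which binds shortened 3′ ends. Lsm6 measured 477, 628 and 454 normalized counts in control libraries and 299, 290 and 265 in Taf4asKO (log2 fold change -0.85, adjusted p = 0.00456), and Lsm4 had 213, 225 and 250 against 132, 144 and 144 (-0.71, adjusted p = 0.00985). Both were called whichever library was left out. Among 16 exosome and Ski genes tested limma called 0, and 1 had an unadjusted p under 0.05. That gene, Exosc10, had 838, 884 and 812 against 627, 653 and 680, with an adjusted p of 0.0331 but a log2 fold change of -0.37 under the fold limit. Skiv2l, the Ski helicase, had a log2 fold change of 0.08 (adjusted p = 0.612).

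Among the Upf and Smg factors, to which Staufen1 couples its targets through UPF1, 1 of 15 was called higher and 1 lower (13.3% against 12.6% of all genes). Casc3, a core protein of the exon junction complex, measured 810, 820 and 771 normalized counts in control libraries and 1075, 1017 and 1042 in Taf4asKO (log2 fold change 0.38, adjusted p = 0.0232), and Smg9 had 275, 253 and 277 against 190, 186 and 190 (-0.50, adjusted p = 0.0254). The groups were apart for both, although each was called in only 1 of the 6 fits that leave out a library.

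Partners of PABPC1 moved in both directions, with 2 of 13 called higher and 2 lower (30.8% against 12.6% of all genes). Eif4g3, a scaffold that joins PABPC1 to the cap-binding complex, measured 4230, 4745 and 4453 normalized counts in control libraries and 6715, 6756 and 6762 in Taf4asKO (log2 fold change 0.59, SE 0.09, adjusted p = 0.00274). Larp1, which binds mRNAs of the translation machinery, had 2800, 2935 and 2497 against 2134, 2002 and 1932 (-0.44, adjusted p = 0.0169). Mkrn1 was also called higher (0.47, adjusted p = 0.0401) and Eif4a1, the helicase, lower (-0.40, adjusted p = 0.0404). Of the 6 fits that leave out a library, Eif4g3 was called in 6, Larp1 in 4, Eif4a1 in 3 and Mkrn1 in 1, and Eif4a1 was also lost after scaling to the library total. Among the 9 partners of FMRP limma called 0, while 4 had an unadjusted p under 0.05. Here and in the other lists, the share of all genes under that unadjusted limit was not counted. Caprin1 and Ago2 had log2 fold changes of -0.02 and -0.33, with adjusted p of 0.937 and 0.145.

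Of 40 other proteins that bind 3′ ends of mRNAs, 2 were called higher and 4 lower (15% against 12.6% of all genes), or 4 and 6 with the replicate block, where 18.1% of all genes were called. Rbm24, a muscle RNA-binding protein known to stabilise myogenic mRNAs, measured 769, 984 and 416 normalized counts in control libraries and 413, 339 and 219 in Taf4asKO. Its groups were barely apart, at 416 and 413, and the fall (log2 fold change -1.12, SE 0.30, adjusted p = 0.0386) was called in 1 of the 6 fits that leave out a library. Hnrnpdl, a paralog of the AU-rich element protein HNRNPD, fell by 0.53 on the log2 scale (adjusted p = 0.00673) and was called in all 6. Ptbp2 and Pcbp4 fell by 0.59 and 0.57 (adjusted p = 0.00826 and 0.0169), called in 5 and 4 of those fits. The genes called higher, named after their values were seen, were Tial1 (0.43, adjusted p = 0.0307) and Ptbp3 (0.47, adjusted p = 0.0168), called in 2 and 3 of them.

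**Figure D4:**
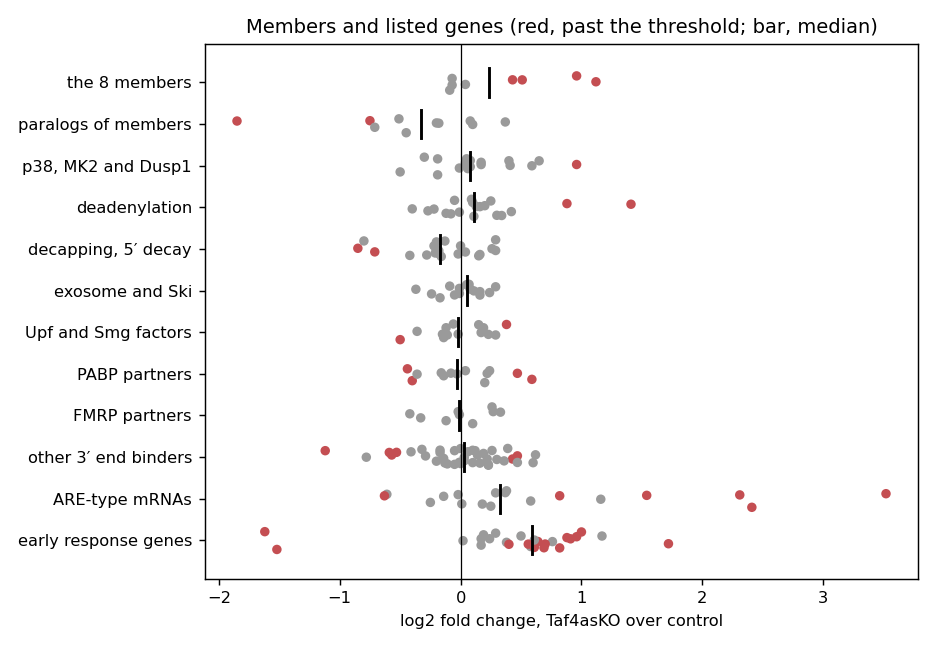
Log2 fold change (Taf4asKO against control) of each tested gene of the members and of the 11 lists of related genes, with called genes in red and bars at the medians. Of the 26 early response genes 12 are red above 0 and 2 below, and both red genes of the decapping list lie below 0.

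Well known AU-rich mRNAs were also followed, since the ZFP36 family destabilises many of them. Of 18 tested, 5 were called higher and 1 lower (33.3% against 12.6% of all genes), with a median log2 fold change of 0.33. Ccl2, a chemokine, measured 14, 17 and 26 normalized counts in control libraries and 296, 204 and 181 in Taf4asKO (log2 fold change 3.52, SE 0.28, adjusted p = 0.000107). Cxcl1 had 434, 384 and 837 against 3799, 2955 and 1886 (2.41, adjusted p = 0.00114), and Cxcl2 had 7, 2 and 9 against 55, 30 and 16 (2.31, adjusted p = 0.0252). All 3 chemokines were thus higher in every Taf4asKO library, with Cxcl2 at low counts throughout and called in 4 of the 6 fits that leave out a library.

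Cdkn1a, the cell cycle inhibitor p21, measured 1058, 589 and 660 normalized counts in control libraries and 3330, 1797 and 1700 in Taf4asKO (log2 fold change 1.54, SE 0.27, adjusted p = 0.00553). Fos, the fifth of those called higher, and Ccnd1, the one called lower, were named after their values were seen, as was Plk3, a kinase gene that was called lower as well with the replicate block (log2 fold change -0.61, adjusted p = 0.133 without the block and 0.00488 with it). Fos had 49708, 46200 and 46002 against 95238, 78804 and 77365 (0.82, adjusted p = 0.00399), and Ccnd1, which encodes cyclin D1, had 2979, 3586 and 2741 against 1694, 2330 and 1985 (-0.63, adjusted p = 0.0156), called in 4 of the 6 fits that leave out a library. Levels of these mRNAs do not separate synthesis from decay.

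Zfp36 itself is known as a gene that is switched on within minutes by growth factors, stress and the dissociation of tissue, so genes of that early response were listed beside it. Of 26 tested, 12 were called higher and 2 lower (53.8% against 12.6% of all genes), and the groups did not overlap for 18 (against 33.0% of all genes). With the replicate block, which called 18.1% of all genes, 17 were called higher and 2 lower. Of the 26 genes, 5 (Fos, Dusp1, Btg2, Ier3 and Nfkbia) also stand in a list above. The summed normalized counts of the 26 genes were 339819, 286958 and 340146 in control and 556695, 439166 and 432120 in Taf4asKO, a ratio of means of 1.48. This sum was lowest in control replicate 2 and highest in Taf4asKO replicate 1, as were Zfp36, Zfp36l1, Zfp36l2 and Fmr1. The part of the early response in the members' differences was not tested.

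Cebpd, a transcription factor of the acute phase response, measured 3627, 2907 and 4620 normalized counts in control libraries and 13435, 10094 and 12808 in Taf4asKO (log2 fold change 1.72, SE 0.17, adjusted p = 0.000326). Klf4 had 5303, 2965 and 4404 against 12037, 7229 and 6397 (adjusted p = 0.0269), a call kept in 2 of the 6 fits that leave out a library and lost after scaling to the library total. The heat shock genes moved the other way. Hspa1b had 3387, 5833 and 6664 in control and 2477, 1347 and 1354 in Taf4asKO (-1.62, adjusted p = 0.00488), and Hspa1a had 2370, 3427 and 3836 against 1662, 895 and 886 (-1.52, adjusted p = 0.0039).

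The genes whose levels over the 6 libraries were most like those of each called member were sought in 10585 genes whose mean reached 50. Genes whose symbol is a Gm number or a Rik name were left out of this search. For Zfp36 these were Foxj2 (Pearson's r = 0.9969), Zfp36l1 (0.9957) and Jund (0.9943), and for Zfp36l1 they were Foxj2 (0.9970), Zfp36 (0.9957) and Pla2g16 (0.9952). For Zfp36l2 they were Cxcl1 (0.9951), Id4 (0.9929) and Epha2 (0.9912), and for Fmr1 Hspb8 (0.9981), Slc19a2 (0.9969) and Iqgap1 (0.9967). The points share 2 groups of 3 libraries, so each r largely reflects the difference between groups and carries no test. A close pattern did not mean a change of like size. Foxj2, a forkhead transcription factor, measured 742, 708 and 738 normalized counts in control libraries and 916, 830 and 814 in Taf4asKO. Its log2 fold change of 0.22 was not called (limma adjusted p = 0.161), and neither was that of Pla2g16 (0.35, adjusted p = 0.11). Hspb8, a small heat shock protein gene, had 66, 54 and 69 against 156, 120 and 131, a log2 fold change of 1.09.

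The labelled cell type was checked against its markers. Pax7, the defining transcription factor of MuSCs, measured 12082, 12244 and 13007 normalized counts in control libraries and 10669, 10363 and 11164 in Taf4asKO (log2 fold change -0.21, adjusted p = 0.161). All 10 MuSC markers were present, with 2 called higher and 3 lower (50% against 12.6% of all genes). Sdc4 and Vcam1 were higher, with log2 fold changes of 0.88 and 0.74 (adjusted p = 0.00211 and 0.00106). Myf5, Cdh15 and Itga7, the gene of the integrin used in the sort, were lower, with -0.85, -0.52 and -0.43 (adjusted p = 0.00134, 0.0209 and 0.0377), called in 6, 3 and 1 of the 6 fits that leave out a library. Without limma's trend of the variance Cdh15 (adjusted p = 0.111) and Itga7 (0.144) lost their calls, while Sdc4, Vcam1 and Myf5 kept theirs. The summed normalized counts of the 10 markers were 51978 to 54010 in control and 52782 to 59277 in Taf4asKO. In bulk RNA, fewer cells of a type and less RNA per cell cannot be told apart.

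Markers of other cell types were present as well, and their part in the members' differences was not tested. Of the Schwann cell markers 4 of 6 were called higher and 1 lower (83.3% against 12.6% of all genes). Their sum was 1521 to 3392 in control and 3673 to 4498 in Taf4asKO. Gfap was at 0 in Taf4asKO replicate 1 and at 2 to 4 elsewhere. The sum of 8 endothelial markers was 926 to 1437 in control and 1528 to 2051 in Taf4asKO, with 0 called by limma, 5 with an unadjusted p under 0.05 and 3 called with the replicate block. That of the 4 immune markers in the table, of 10 listed, was 469 to 581 and 696 to 942, with 0 called, 2 with an unadjusted p under 0.05 and 1 called with the block. The higher immune sum came from Lyz2 (mean 257 in control and 559 in Taf4asKO), while the means of Cd68, Csf1r and Cd79a were lower in Taf4asKO. Of 8 mural cell markers 2 were called higher (25% against 12.6% of all genes). The block, which called 18.1% of all genes, called 6. Of 10 fibro-adipogenic markers 1 was called higher and 2 lower (30%), or 7 and 2 with the block. Of 8 myofibre markers 1 was called lower (12.5%). Summed levels of these lists overlapped between groups, at 25670 to 30608 and 26506 to 31324 for mural, 72293 to 116321 and 67888 to 102446 for fibro-adipogenic and 2211 to 6010 and 2610 to 3221 for myofibre markers. Abundant genes weigh on these sums, since Col3a1 fell from a mean of 47012 to 15883 and the mean of Notch3 was 15488 in control and 12289 in Taf4asKO, while 8 of 10 fibro-adipogenic and 6 of 8 mural markers had a log2 fold change above 0, with medians of 0.83 and 0.62. Ly6a, which encodes the SCA1 that the sort excluded, was at 2 to 14 in control and 8 to 13 in Taf4asKO.

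Promoters of called members with a window in the RefSeq table are shown to set side by side the short motifs before their starts. The 250 bases before the RefSeq start (GRCm38.p6, the assembly also called mm10) were searched on both strands for short motifs in 32851 promoters. CCAAT was found in 33.8% of them, the TATA box letters TATAAA in 12.4%, the GC box letters GGGCGG in 32.7%, the CRE letters TGACGTCA in 1.55% and the CArG box, the site of serum response factor, in 1.47%. Windows were matched for Zfp36, Zfp36l1, Stau1, Fmr1, Msi2 and Elavl1, and not for Zfp36l2 and Pabpc1. Of the Fmr1 windows, which overlap, the upstream one is shown.
Zfp36, chr7:28379229-28379478 (-), CArG box in capitals: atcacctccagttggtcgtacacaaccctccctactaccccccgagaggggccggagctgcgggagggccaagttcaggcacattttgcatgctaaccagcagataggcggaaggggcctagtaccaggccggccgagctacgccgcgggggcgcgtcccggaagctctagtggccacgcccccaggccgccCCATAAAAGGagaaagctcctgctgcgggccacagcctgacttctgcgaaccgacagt
Zfp36l1, chr12:80113014-80113263 (-), TATA box and overlapping CCAAT in capitals: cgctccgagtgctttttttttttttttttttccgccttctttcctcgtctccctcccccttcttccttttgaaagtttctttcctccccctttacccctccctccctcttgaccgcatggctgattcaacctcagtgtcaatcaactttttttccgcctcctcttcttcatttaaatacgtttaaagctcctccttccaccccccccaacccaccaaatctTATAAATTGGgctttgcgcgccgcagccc
Fmr1, chrX:68678291-68678540 (+), no letters in capitals: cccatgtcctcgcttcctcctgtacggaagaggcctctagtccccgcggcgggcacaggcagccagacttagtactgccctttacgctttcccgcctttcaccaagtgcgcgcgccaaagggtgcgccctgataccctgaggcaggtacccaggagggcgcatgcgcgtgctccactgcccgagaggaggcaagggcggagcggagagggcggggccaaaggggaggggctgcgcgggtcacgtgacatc

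The Zfp36 window held a CArG box that begins at base -58 and GGGCGG on the other strand at -63, which share 1 base. The span of Zfp36 in the expression table reaches beyond this window, so it is the promoter of 1 annotated start. The Zfp36l1 window held TATAAA at -29 and CCAAT on the other strand at -24, sharing 1 base, and no CArG box. In the Fmr1 window shown GGGCGG stood at -57 and -43, and in the other, counted from its own start, at -98 and -84. Among the members that were not called, the Elavl1 window held CCAAT at -65 and -34, each Msi2 window held CCAAT with the GC box and the CRE, and 1 of the Stau1 windows held GGGCGG. A match is a description of the letters.

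Some members overlap other annotated genes. Exons of Zfp36, Zfp36l1 and Elavl1 overlap those of Gm44710, Gm26669 and Ccl25 on the opposite strand, and the sources used here do not state that counting used the strand. Their normalized counts were 5 to 26 for Gm44710, 23 to 52 for Gm26669 and 12 to 37 for Ccl25 over the 6 libraries, small beside those of the members. Zfp36l2 overlaps AC132455.1 on the opposite strand and Fmr1 overlaps Gm27838 on its own strand. Reads that overlapped more than 1 gene were left out of the counts.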

How the data were processed

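Total RNA of sorted MuSCs (10 ng per library) was made into libraries with a stranded low-input kit and sequenced in 6 libraries, 3 per group, grouped by their labels. The study's methods name Trimmomatic 0.39, STAR 2.6.0c on mm10 without reads that mapped to several places, featureCounts 1.6.0 over exons and DESeq2 1.14.1. The deposited values are a score: the authors scaled read counts by 1 size factor for each library and rounded them, and these values are called normalized counts. The rounding was inferred from the whole-number values, so a count test was not run. No authors' comparison columns were used, and 0 value columns lacked a sample.

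Genes whose mean reached 5 went into a two-sided limma test (version 3.58.1, R 4.3.3, lmFit, then eBayes with its intensity trend) of log2(value + 1), which understates changes of low genes, with adjusted p from the Benjamini-Hochberg method over all genes tested. Ratios between genes were compared with exact permutation tests. The scripts were tested on simulated data. Exon lengths and 3′ UTRs come from GENCODE M21, which holds 99.8% of the gene IDs, and promoters from RefSeq. Overlapping matches were counted.

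Replicate numbers come from the sample titles, and the sources used here do not state that equal numbers were paired. Deviations from the group means correlated at 0.235, 0.126 and 0.15 between samples of equal number, each above 0.1. A pairing was thus inferred from these same data, and the number entered as a block only in an alternative fit. The other alternatives were 3 scalings, pseudocounts of 0.1 and 10, no filter, no intensity trend, robust shrinkage, no fold limit and leaving out each library.

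The members and lists were chosen with earlier results of these data known. Named genes were the members, Myod1, Taf4, tested paralogs, in each further list up to 4 called genes with the largest change (or the 2 most abundant where none was called), the 3 genes most like each called member and markers. Mapk14, Mapkapk2 and the genes said to be so in the text were chosen after their values were seen. Figures were drawn with matplotlib 3.10.9.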

Additional observations from a re-analysis of the deposited data

How the results depend on the processing

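With the replicate block, 3355 genes were called and 1688 of them were higher, and the block changed no call of a member. Of the related genes 31 were then called higher and 18 lower. Without the intensity trend 941 genes were called (337 higher, 604 lower), with 1 member, Zfp36, called and called higher, and 13 related genes (9 higher, 4 lower). Zfp36l1 then had a log2 fold change of 0.96 (limma adjusted p = 0.0685), Zfp36l2 0.51 and Fmr1 0.43 (adjusted p = 0.0955 for both). Scaling to the library total left 3 members called. Under upper-quartile scaling Stau1 was at -0.0003. Leaving out each library gave 956 to 3096 genes called, with 350 to 1607 higher and 595 to 1489 lower, 2 to 4 members called, all higher, and 20 to 39 related genes (11 to 24 higher, 6 to 17 lower). The log2 fold change of Myod1 then ranged from 0.12 to 0.62, that of Stau1 from -0.03 to 0.07, Msi2 -0.17 to 0.07, Elavl1 -0.18 to 0.03, Caprin1 -0.19 to 0.13 and Pabpn1l -0.82 to 0.02. The causes were not tested. Of the 128 values of the 8 members over 16 alternatives, 111 kept direction and side of the threshold, 11 lost the call and 6 turned in sign. The alternative without a fold limit reuses the main fit, so it could neither lose a call nor turn a sign. The block, no filter, no intensity trend and robust shrinkage leave each log2 fold change as it was, so there no sign could turn. For 46 other named genes, 656 of 735 values kept both, 71 lost the call, 4 gained it and 4 turned. With 3 libraries a group, only the members' intervals, and not a lack of difference, can be stated for Stau1, Msi2, Elavl1 and Pabpc1. Read depth could not be recovered exactly from the rounded values.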
